A study of Mus musculus with 7 samples.

Results

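GABA-A receptor subunit genes were followed in cultured oligodendroglia with and without the transcription factor KLF13. The group holds 7 genes, 4 of the alpha class (Gabra2, Gabra3, Gabra4 and Gabra5), 2 of the beta class (Gabrb1 and Gabrb2) and 1 of the gamma class (Gabrg3). They were taken by symbol, as members of 1 gene family picked with earlier results of these data known, and make up 7 of the 49315 gene identifiers counted. All 7 had enough reads to be among the 18352 genes tested. RNA was sequenced from 7 primary cultures of mouse oligodendroglia, 4 wildtype controls (genotype Klf13-wt) and 3 Klf13 knockouts (genotype Klf13-ko), with 1 library per culture. Oligodendrocyte precursor cells (OPCs) were set free from mixed glial cultures of newborn mouse brain by shaking, depleted of microglia and then held in SATO medium under differentiating conditions for 6 days, in both groups alike. The deletion is constitutive, so that every cell type in a knockout culture carried it. No sorting of the cells before RNA extraction is described. Apart from the biological replicate number, the labels do not say which cultures shared a litter or a day of preparation.

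GABA-A receptors are pentameric chloride channels that open when the transmitter GABA binds between an alpha and a beta subunit. Most native receptors combine alpha, beta and gamma subunits, and the alpha subunit that is built in sets where the receptor sits and how fast it closes. In the oligodendroglial lineage, OPCs carry GABA-A receptors and receive synaptic input from GABAergic neurons, and this sensitivity to GABA declines as the cells mature. The same subunits are abundant in neurons, and astrocytes express some of them too.

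The libraries held 24507471 to 59596479 counts on genes, and Gm42418, Gm23935 and Lars2, to which ribosomal RNA reads map, took 6.03% to 17.95% of them. This share exceeded 10% in 2 controls (replicates 1 and 4) and 2 knockouts (replicates 1 and 3). Klf13 itself ranged from 10670 to 12000 normalized counts over the controls and from 802 to 961 over the knockouts, with a log2 fold change of -3.69 (SE 0.09, edgeR quasi-likelihood test, adjusted p = 6.77e-06), and every library stood with its label. Normalized counts are counts divided by the library size after scaling by the trimmed mean of M values (TMM) and brought to a common library size. The labelled cell type was borne out by its markers in the controls, where the 12 markers of mature oligodendrocytes summed to 5046 to 5504 RPKM on TMM-scaled libraries. RPKM divides a count by the exon length and the library size and is the scale on which genes are compared with each other here. In the knockouts they summed to 1526 to 1787, and all 12 were lower past the adjusted p of 0.05.

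All 7 subunit genes had more transcript in each knockout than in any control library. Of all tested genes, 18.3%% stood apart between the groups in this way and direction. In edgeR's quasi-likelihood test, 6 of the 7 rose past an adjusted p of 0.05, where 11.6% of all tested genes did, and none fell, where 12.2% of all tested genes did. No member fell at an unadjusted p under 0.05 either, nor in DESeq2's or limma's test. Of the 6, 5 also reached a log2 fold change of 1, the threshold the study used, against 3.97% of all tested genes above it and 3.08% beyond it in the other direction. The median log2 fold change was 1.25 over the 7 genes and close to 0 (-0.0037) over all tested genes. Of all tested genes, 9.78% had a log2 fold change at or above that of Gabra3, the lowest of the 7, and 1.34% at or above that of Gabra2, the highest. These counts rest in part on single libraries. Without knockout replicate 2, which had the highest value of 5 of the 7 genes, 3 rose and 2 reached the fold threshold. Calls were also fewer over all tested genes in that fit, with 4.57% higher and 1.80% past the fold threshold. Without control replicate 4, which had the lowest control value of 4 of them, or without knockout replicate 1 or 3, 4 rose and 3 reached the fold threshold, where 6.35% to 9.47% and 2.87% to 3.35% of all tested genes did. In a culture of many cells, more cells of a type and more RNA per cell cannot be told apart.

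**Figure D1:**
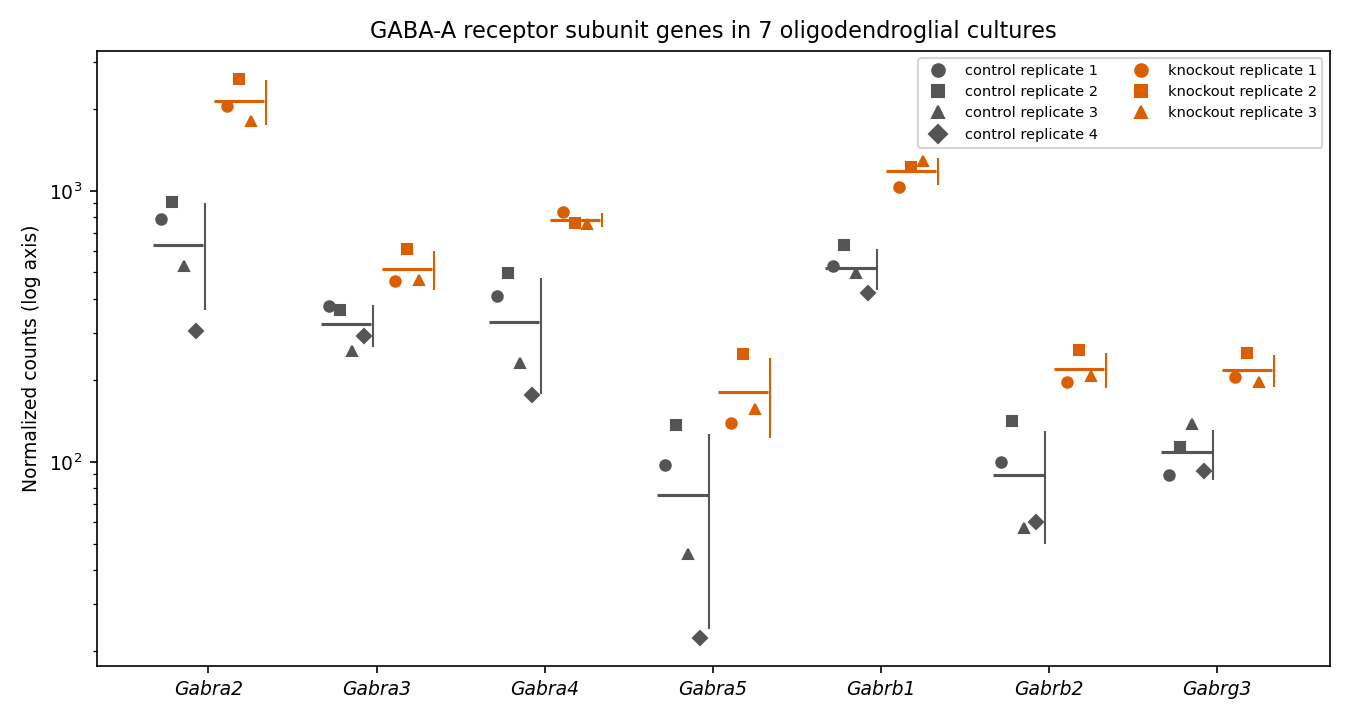
Normalized counts (log axis) of the 7 GABA-A receptor subunit genes, with 1 point per library, controls in grey and knockouts in orange, a horizontal bar at the group mean and a vertical bar of 1 SD on either side. For every gene the 3 knockout points lie above the 4 control points, from Gabra5 at 22.5 in control replicate 4 to Gabra2 at 2593 in knockout replicate 2.

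The sequence in front of the transcription start is shown for 3 of the genes, the one that changed most (Gabra2), the one that changed least (Gabra3) and Gabra4, which starts head to head with Gabrb1. They are given because KLF13 binds DNA at short GC-rich elements. The sequences are those of RefSeq on GRCm38.p6, read 5′ to 3′ along the minus strand, on which all 3 genes lie, and stretches inside annotated exons were left out. Capitals mark the 6-base elements ACNCCC and CCNCCC on either strand, with any base except C at N, the form in which the study searched for KLF motifs. They lie at chr5:71095850-71096099 (Gabra2), chrX:72656849-72657057 (Gabra3) and chr5:71658364-71658558 (Gabra4).
Gabra2: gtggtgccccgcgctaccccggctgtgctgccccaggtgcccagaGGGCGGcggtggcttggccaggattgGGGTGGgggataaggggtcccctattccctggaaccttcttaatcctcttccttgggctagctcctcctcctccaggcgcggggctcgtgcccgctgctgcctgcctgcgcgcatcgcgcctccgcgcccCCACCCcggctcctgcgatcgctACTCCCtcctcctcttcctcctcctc
Gabra3: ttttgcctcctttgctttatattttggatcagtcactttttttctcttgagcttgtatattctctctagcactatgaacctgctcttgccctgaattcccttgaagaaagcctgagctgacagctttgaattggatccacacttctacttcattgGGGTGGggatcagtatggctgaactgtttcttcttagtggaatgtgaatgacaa
Gabra4: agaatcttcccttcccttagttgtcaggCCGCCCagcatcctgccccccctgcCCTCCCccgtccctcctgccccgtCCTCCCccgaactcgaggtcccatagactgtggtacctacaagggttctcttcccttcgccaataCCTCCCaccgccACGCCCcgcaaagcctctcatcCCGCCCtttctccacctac

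The Gabra2 stretch held 4 such elements, the Gabra3 stretch 1 and the Gabra4 stretch 6. Such elements are common. Among 32851 RefSeq windows of 250 bases before a start site, 72.6% held at least 1, the median was 1, 21.3% held at least 4 and 8.2% at least 6. All 7 genes were matched to RefSeq, with 11 start sites between them, and 7 of these windows held at least 1 element. The window of Gabrg3 held 5, the 3 windows of Gabrb2 held 4, 8 and 0, the 2 windows of Gabrb1 held 2 and 0, and the second start site of Gabra3 held 0. The window of Gabra5 held 0. In base composition the windows ranged from the Gabra2 window, with 70.0% G and C, to a Gabrb2 window with 36.8%, around a median of 52.4% over all windows. A match is a string of letters and says nothing on binding, and the files used here hold no binding data.

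Gabra2 encodes the alpha2 subunit, which in neurons is typical of synapses on the axon initial segment. The gene (ENSMUSG00000000560) lies on chromosome 5 of GRCm38, minus strand, at chr5:70957597-71095849. Control replicates 1 to 4 had 786, 907, 528 and 305 normalized counts, and knockout replicates 1 to 3 had 2056, 2593 and 1806. The lowest knockout was far above the highest control, and the controls spread by a factor of 2.97. The mean rose from 632 ± 269 (SD, n = 4) to 2152 ± 402 (SD, n = 3). The log2 fold change was 1.77 (95% confidence interval 0.97 to 2.57, edgeR adjusted p = 0.0114), the highest of the 7. It rose without each library in turn. With no filter on low counts the adjusted p was 0.0509.

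Gabra3, on the X chromosome (ENSMUSG00000031343, chrX:72432681-72656848, minus strand), encodes alpha3, a subunit found in monoaminergic neurons and in the thalamic reticular nucleus. The 4 controls, in the same order, had 375, 362, 257 and 292 normalized counts, the 3 knockouts 466, 612 and 468. The groups did not overlap, but the gap between control replicate 1 and knockout replicate 1 was small. The means were 322 ± 56.4 and 516 ± 83.9, and the log2 fold change was 0.68 (95% confidence interval 0.29 to 1.08, edgeR adjusted p = 0.0264), below the fold threshold. The call was lost without control replicate 4 (adjusted p = 0.0563) or knockout replicate 2 (adjusted p = 0.0964).

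Gabra4 encodes alpha4, which is found mostly outside synapses, where it carries tonic inhibition. The gene (ENSMUSG00000029211, chr5:71569749-71658308, minus strand) reached 408, 498, 232 and 176 normalized counts without the deletion and 838, 760 and 753 with it. The controls fell into a higher and a lower pair, replicates 1 and 2 against 3 and 4, whereas the knockouts differed by a factor of only 1.11. It rose from 328 ± 150 to 784 ± 47.1, a log2 fold change of 1.25 (95% confidence interval 0.47 to 2.04, edgeR adjusted p = 0.0345). This call was among the least stable. It was lost without control replicate 3 (adjusted p = 0.0606), knockout replicate 1 (0.0892), knockout replicate 2 (0.0920) or knockout replicate 3 (0.0705), with no filter on low counts (0.0922) and with the share on the 3 ribosomal RNA-collecting genes as a covariate (0.0562).

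Gabra5 encodes alpha5, also mainly a subunit of tonic, extrasynaptic receptors and best known from the hippocampus. The gene (ENSMUSG00000055078, chr7:57407672-57510059, minus strand) was covered by 24 to 363 raw counts per library. The controls had 97.2, 137, 45.7 and 22.5 normalized counts, whereas the knockouts had 139, 250 and 157. Control replicate 2 came close to knockout replicate 1, and the controls spread by a factor of 6.09, the widest of the 7 genes. The means were 75.5 ± 51.4 and 182 ± 59.3. The log2 fold change of 1.28 was of the size seen for Gabra4 and Gabrb2, but its 95% confidence interval reached from -0.02 to 2.57 and the gene did not pass (edgeR adjusted p = 0.141, unadjusted p = 0.0524). It did not pass by DESeq2 (adjusted p = 0.0742) or limma (adjusted p = 0.0609).

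Gabrb1 encodes the beta1 subunit. The gene (ENSMUSG00000029212, chr5:71658113-72149037, plus strand) stood at 527, 634, 496 and 418 normalized counts in wildtype and at 1031, 1226 and 1289 in knockout cultures. Both groups were tight, and the gap between them was wider than the spread within either. It rose from 519 ± 89.1 to 1182 ± 135, a log2 fold change of 1.19 with the narrowest confidence interval of the 7 (0.85 to 1.53, edgeR adjusted p = 0.0022). Gabrb1 passed both thresholds in every alternative that was run, including the removal of each library.

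Gabrb2 encodes beta2, the prevailing beta subunit of the adult brain. The gene (ENSMUSG00000007653, chr11:42419757-42629028, plus strand) was low, with 99.9, 142, 57.2 and 59.9 normalized counts in wildtype and 197, 258 and 207 in knockout cultures. As for Gabra4, control replicates 1 and 2 lay above 3 and 4. It rose from 89.7 ± 39.8 to 221 ± 32.6, a log2 fold change of 1.30 (95% confidence interval 0.54 to 2.07, edgeR adjusted p = 0.0274). The call was lost without control replicate 4 (adjusted p = 0.0517), knockout replicate 1 (0.0571), knockout replicate 2 (0.0960) or knockout replicate 3 (0.0559).

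Gabrg3 encodes the gamma3 subunit, a less common partner at the gamma position, which together with an alpha subunit forms the site for benzodiazepines. The gene (ENSMUSG00000055026, chr7:56716465-57387188, minus strand) reached 89.1, 114, 138 and 92.7 normalized counts in wildtype and 206, 252 and 197 in knockout cultures. It was the only one of the 7 with its highest control value in replicate 3. It rose from 108 ± 22.7 to 218 ± 29.6, a log2 fold change of 1.01 (95% confidence interval 0.56 to 1.46, edgeR adjusted p = 0.0101). Gabrg3 passed the adjusted p without each library in turn, but it lay at the edge of the fold threshold. With the replicate number as a block the log2 fold change was 0.95 (adjusted p = 0.0287), without control replicate 1 it was 0.95, without control replicate 4 it was 0.96, without knockout replicate 2 it was 0.89 and with library sizes that leave out the ribosomal RNA-collecting genes it was 0.99.

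The 7 genes were also compared within the libraries above and below 10% of ribosomal RNA-collecting reads. Above 10% (2 controls and 2 knockouts), the log2 ratio of the mean normalized counts ran from 0.49 for Gabra3 to 1.82 for Gabra2. Below it (2 controls and 1 knockout), the ratios ran from 0.98 for Gabra3 to 1.85 for Gabra2. Since each of the 7 genes stood apart between the groups, the direction within each class was given beforehand, and these values show the size alone.

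Levels between genes were compared in RPKM, per kilobase of exon. In the controls, Gabra2 had a mean level of 1.88 and Gabra3 of 1.86, and their ranges of 0.908 to 2.70 and 1.49 to 2.18 overlapped. Gabra4 followed with 1.23, Gabrb1 with 0.852, Gabra5 with 0.578, Gabrb2 with 0.321 and Gabrg3 with 0.207. The means kept this order in the knockouts, where they were 6.40, 2.99, 2.93, 1.94, 1.39, 0.789 and 0.416. There, Gabra2 at 5.38 to 7.72 stood clear of Gabra3 at 2.70 to 3.55. Gabra3 and Gabra4 overlapped in the knockouts, and so did Gabrb1 and Gabra5. Gabra4 lay above Gabrb1 in the knockouts, Gabra5 above Gabrb2 and Gabrb2 above Gabrg3, without overlap. In the controls, the ranges of genes next to each other in this order all overlapped. In control replicate 4, for example, Gabra4 stood at 0.658 and Gabrb1 at 0.688. The lengths are those of all annotated exons, up to 13838 bases for Gabrb1, so that a gene whose cells use a shorter transcript is set too low.

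Summed over the 7 genes, the level per kilobase was 4.51 to 9.47 in the controls (mean 6.93 ± 2.29, SD, n = 4) and 15.3 to 19.4 in the knockouts (16.9 ± 2.24, SD, n = 3). The share of Gabra2 in this sum was 28.6%, 28.5%, 28.3% and 20.2% for the control replicates, against 38.7%, 39.7% and 35.0% for the knockout replicates. Gabra3 took the opposite course, with 26.6%, 22.2%, 26.8% and 37.5% in wildtype and 17.1%, 18.3% and 17.7% in knockout cultures. Neither share overlapped between the groups. The two-sided exact permutation test gave p = 0.0571 for each, which is the lowest value that 4 against 3 libraries allow, so that no share could pass 0.05. The other 5 shares overlapped (exact permutation p = 0.343 to 0.914, 7 shares compared in all). The 4 alpha genes together held 79.3% ± 3.35 of the sum in the controls and 81.2% ± 2.01 in the knockouts, the 2 beta genes 17.4% ± 2.21 and 16.3% ± 2.02, and Gabrg3 3.25% ± 1.29 and 2.47% ± 0.0167. Within the sum of these 7 genes, the class shares thus moved by less than the SD of the controls, and the main shift lay among the alpha genes. Further subunit genes are left out of this sum, so it does not give the balance between the classes as a whole.

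**Figure D2:**
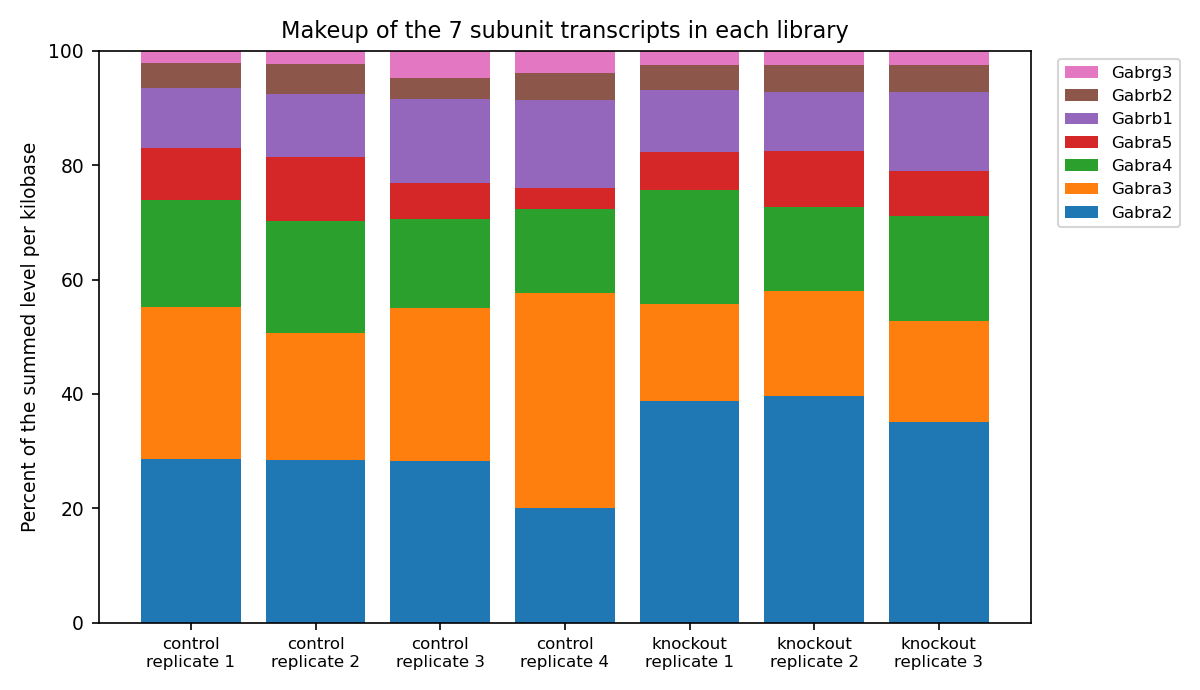
Makeup of the summed level per kilobase of the 7 subunit genes in each library, in percent, with 1 stacked bar per library and 1 colour per gene. The Gabra2 segment spans 35.0% to 39.7% in the 3 knockouts and 20.2% to 28.6% in the 4 controls, and the Gabra3 segment is narrower in every knockout than in any control.

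Of the further subunit genes, which encode the alpha6, delta, epsilon, pi, theta and rho subunits, 3 of 8 had enough counts to be tested and none passed, with a median log2 fold change of 0.31. Gabrp and Gabrr3 had 3 counts or fewer in every library, and Gabrd, whose delta subunit pairs with alpha4 in extrasynaptic receptors, had 0 to 7. The theta subunit gene Gabrq had 9.14 to 21.1 normalized counts in the controls and 25.1 to 39.7 in the knockouts (log2 fold change 1.14, edgeR adjusted p = 0.0570), and the epsilon subunit gene Gabre had a log2 fold change of 0.22 (adjusted p = 0.764). Summed per kilobase, these 8 genes reached 0.199 to 0.464 in the controls and 0.419 to 0.615 in the knockouts, far below the 7 genes above.

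Of 19 genes that assemble and anchor the receptor, all tested, 11 did not pass, 3 rose (15.8%, against 11.6% of all tested genes) and 5 fell (26.3%, against 12.2%), and the median log2 fold change was 0.07. Gphn, which encodes gephyrin, the scaffold of inhibitory synapses, had 2633 ± 96.5 normalized counts in the controls and 2767 ± 70.2 in the knockouts (log2 fold change 0.07, edgeR adjusted p = 0.368). Only Iqsec3, an exchange factor that binds gephyrin, reached the fold threshold, with 284 ± 146 and 832 ± 202 (log2 fold change 1.56, adjusted p = 0.0320). Of the 5 that fell, Plcl1, a phospholipase C-like protein that binds receptor subunits and GABARAP, had the lowest log2 fold change, -0.94 (adjusted p = 0.0005). Ubqln1, a ubiquitin-like protein that stabilizes receptors in the cell, fell by 0.31 on the log2 scale (adjusted p = 0.0086). Dbi, which encodes the diazepam-binding inhibitor, had a log2 fold change of 0.37 and Gabarap, a receptor-associated trafficking protein, of -0.05, and neither passed (adjusted p = 0.0717 and 0.690).

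Of 12 listed genes that make, move or break down GABA, 9 were tested, of which 5 rose and 2 fell, with a median log2 fold change of 0.63. These were 55.6% and 22.2%, against 11.6% and 12.2% of all tested genes. Gad1, a GABA-synthesizing enzyme, reached 1689, 1996, 698 and 473 normalized counts in wildtype and 3824, 5188 and 3669 in knockout cultures. The controls fell into the same higher and lower pair as for Gabra4, and the log2 fold change was 1.80 (edgeR adjusted p = 0.0333). Its partner Gad2 had a log2 fold change of 2.10 (adjusted p = 0.0139) and Slc32a1, the vesicular GABA transporter, of 2.04 (adjusted p = 0.0413). Slc6a11, a membrane transporter that takes up GABA, had a log2 fold change of 1.59 (adjusted p = 0.0231). Abat, the enzyme that breaks GABA down, had 16842 ± 1681 normalized counts in the controls and 15280 ± 912 in the knockouts and did not pass (log2 fold change -0.14, adjusted p = 0.316). Aldh9a1 and Maob, enzymes of a side route to GABA from putrescine, fell by 0.22 and 1.81 on the log2 scale (adjusted p = 0.0352 and 0.0229), Maob from no more than 70 counts.

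Of the 5 GABA-B receptor genes, which encode the G protein-coupled GABA receptor and its auxiliary subunits, Gabbr1 rose by 0.76 on the log2 scale (edgeR adjusted p = 0.0295), and the other 4 did not pass. Of 10 genes that set the chloride gradient, on which the effect of an open GABA-A channel depends, 2 rose and 3 fell. Slc12a2, the importer NKCC1, fell from 26536 ± 1362 to 9640 ± 857 normalized counts (log2 fold change -1.46, adjusted p = 6.17e-05). Stk39, a kinase that activates this importer, fell by 1.08 (adjusted p = 0.00082) and Wnk1, which acts on Stk39, by 0.53 (adjusted p = 0.0048) on the log2 scale. Wnk3, a kinase of the same family as Wnk1, rose by 0.53 on that scale (adjusted p = 0.0286). Slc12a5, the neuronal exporter KCC2, rose from 215 ± 117 to 746 ± 305 normalized counts (log2 fold change 1.80, adjusted p = 0.0282). Among the subunits of the related glycine receptor, Glra2 rose by 2.38 (adjusted p = 0.0141) and Glrb fell by 0.73 (adjusted p = 0.00021) on the log2 scale, while Glra4 did not pass.

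**Figure D3:**
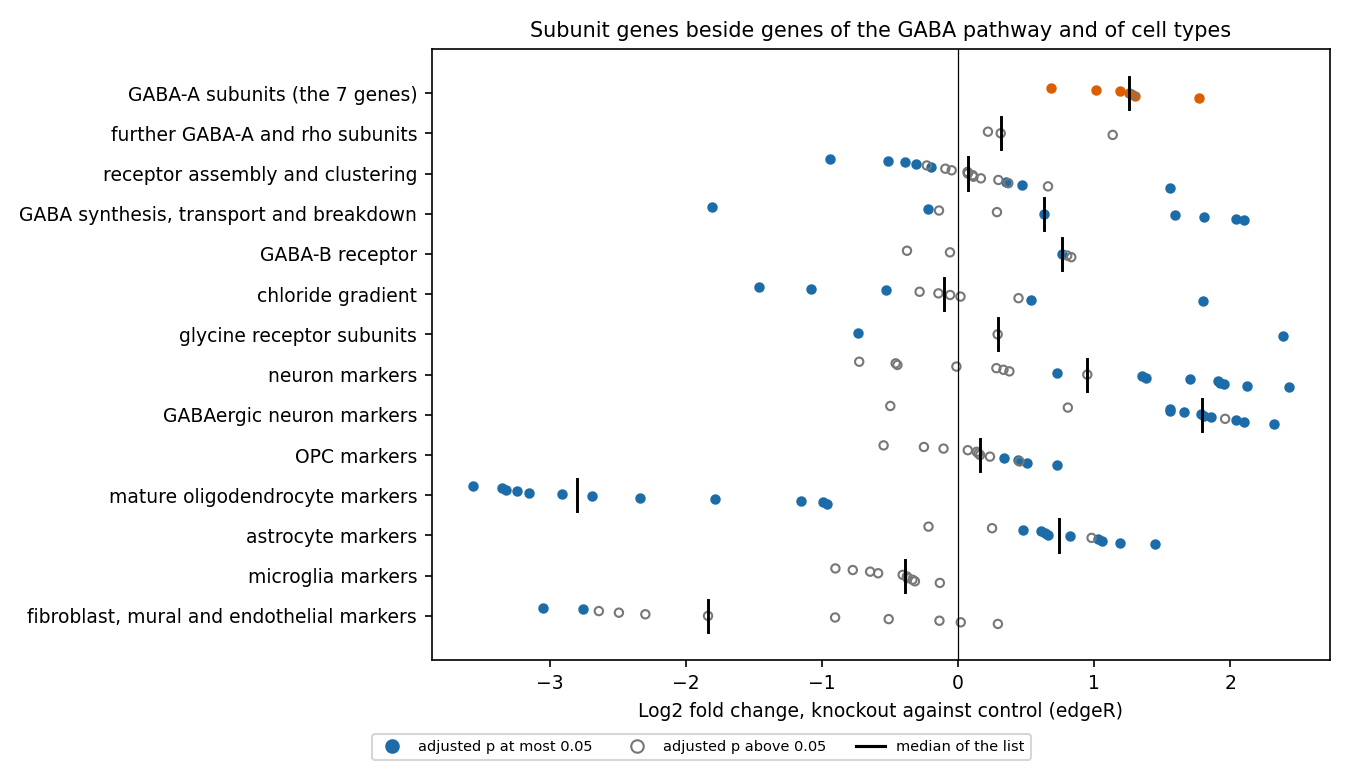
Log2 fold change of knockout against control (edgeR) for each tested gene of 14 lists, with filled points for an adjusted p of at most 0.05 (orange for the subunit genes, blue for the rest), open points for the others and a black bar at the median of each list. The 7 subunit genes lie between 0.68 and 1.77, all to the right of 0, the GABAergic neuron markers have a median of 1.79 and the mature oligodendrocyte markers one of -2.80.

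Markers of GABAergic neurons, neurons and astrocytes rose in the knockouts for the larger part, where 11.6% of all tested genes rose and 12.2% fell. Of the 12 tested GABAergic neuron markers, 9 rose and none fell, with a median log2 fold change of 1.79. Gad1, Gad2 and Slc32a1 are also on this list. Dlx1, a transcription factor of GABAergic precursors, had a log2 fold change of 2.32 (edgeR adjusted p = 0.0218), and Vip, a marker of one interneuron class, had 3 counts or fewer in every library. The summed level per kilobase of the 13 listed genes came to 38.5, 48.9, 25.3 and 16.1 for control replicates 1 to 4 and to 94.1, 144 and 86.5 for knockout replicates 1 to 3. Of 17 tested general neuron markers, 9 rose and none fell (median 0.95), and their summed level was 230 to 286 in the controls and 334 to 474 in the knockouts. Of 12 astrocyte markers, 9 rose and none fell (median 0.74), with 575 to 769 and 1068 to 1254. Of 13 OPC markers, 4 rose (30.8%) and none fell (median 0.16), with 527 to 623 and 608 to 637, and none reached the fold threshold. None of 10 microglia markers passed (median -0.39), with 277 to 1260 and 308 to 602. Of 11 tested fibroblast, mural and endothelial markers, 2 fell and none rose (median -1.84), with 86.5 to 244 and 45.7 to 87.8, and the endothelial marker Cldn5 had 3 counts or fewer in every library. The part of these cell types in the levels of the subunit genes was not tested.

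Across the 7 libraries, the subunit genes ran with the GABAergic, the astrocyte and the general neuron list, and against the mature oligodendrocyte list. Pearson's r of a gene's log2 level with the mean of the z-scored GABAergic list was 0.87 for Gabrg3 to 0.995 for Gabra2. With the astrocyte list it was 0.80 for Gabrg3 to 0.99 for Gabrb2. The astrocyte value was the higher of these for Gabra3 (0.974 against 0.943), Gabra4 (0.955 against 0.950), Gabrb1 (0.955 against 0.943) and Gabrb2 (0.989 against 0.955), and the GABAergic value for Gabra2, Gabra5 and Gabrg3. With the neuron list r was 0.86 to 0.93. For Gabrg3 the neuron value (0.875) was above both the GABAergic (0.871) and the astrocyte value (0.797). For Gabra5 it was 0.897, against 0.894 with the astrocyte list. With the OPC list r was 0.41 to 0.78 and with the mature oligodendrocyte list -0.95 to -0.68. With the microglia list it was -0.48 to 0.05 and with the fibroblast, mural and endothelial list -0.92 to -0.62. These are descriptions over 7 libraries that share the split between the groups, which by itself draws such values together.

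The level of each subunit gene was also divided by the summed GABAergic marker level of the same library, a ratio chosen after the values were seen. Summed over the 7 genes, it was 0.194 to 0.281 in the controls and 0.135 to 0.177 in the knockouts, so that the genes together rose less than these markers. For Gabra2 this ratio was 0.0552 to 0.0622 in the controls and 0.0537 to 0.0650 in the knockouts, so that the groups overlapped, although both quantities spanned a wide range over the 7 libraries. For Gabra3 it was 0.0429 to 0.105 in the controls and 0.0247 to 0.0314 in the knockouts, and for Gabrg3 0.00441 to 0.0110 and 0.00334 to 0.00434. For both, the ratio was lower in every knockout than in any control. Gabra4 (0.0343 to 0.0410 against 0.0197 to 0.0333) was also lower without overlap, while Gabra5, Gabrb1 and Gabrb2 overlapped. The marker sum itself was 16.1 to 48.9 in the controls and 86.5 to 144 in the knockouts. A gene at the same level in all 7 libraries would therefore also have a lower ratio in every knockout. The share of all tested genes with such a ratio was not computed, so this is no trait of the subunit genes.

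**Figure D4:**
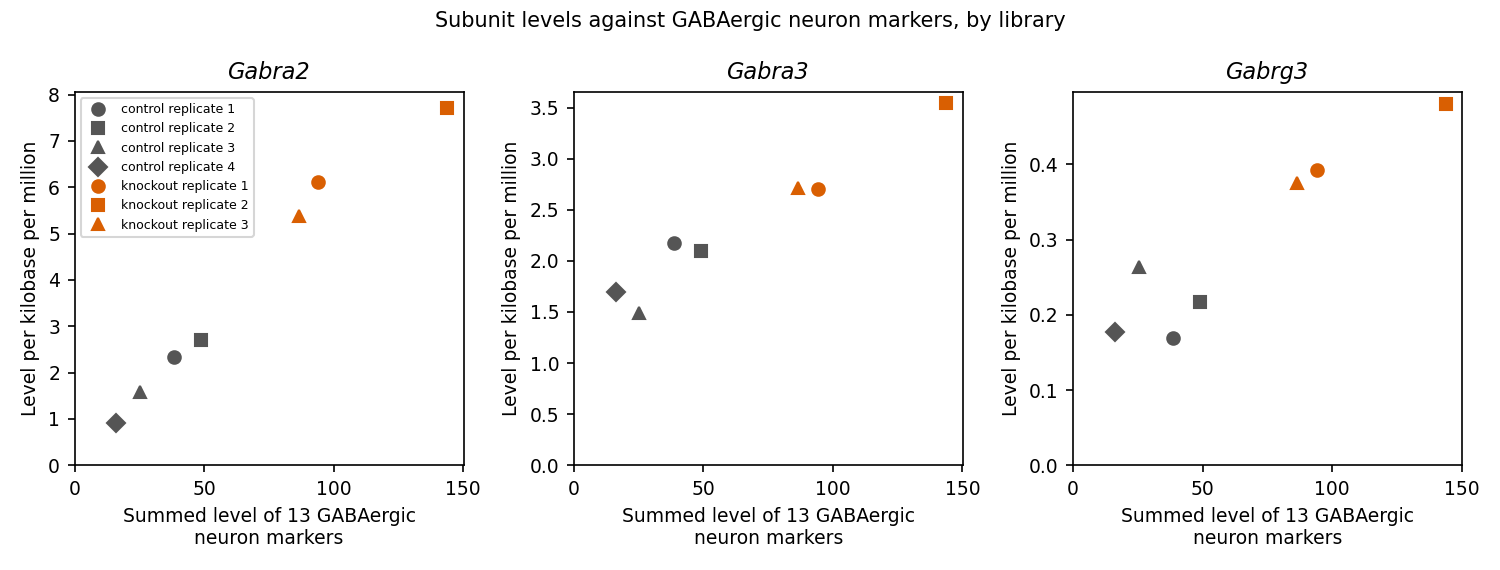
Level (RPKM on TMM-scaled libraries) of Gabra2, Gabra3 and Gabrg3 (vertical axes) against the summed level of the 13 GABAergic neuron markers on the same scale (horizontal axis), with 1 point per library, grey for controls and orange for knockouts. Gabra2 rises in step with the markers, from 0.908 at a marker level of 16.1 to 7.72 at 144, whereas Gabra3 is already at 1.69 in the library with the fewest markers.

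Among the genes whose pattern over the 7 libraries was most like the mean of the 7 subunit genes were Chrnb2 (r = 0.9988), Mex3a (0.9987), Camta1 (0.9986) and Shank1 (0.9985). Chrnb2 encodes a nicotinic acetylcholine receptor subunit and Shank1 a scaffold of excitatory synapses. Mex3a encodes an RNA-binding protein and Camta1 a transcription factor. These 4 rose in the knockouts, by 1.17 (Mex3a) to 2.15 (Shank1) on the log2 scale (edgeR adjusted p = 0.0080 to 0.0141).

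Subunit genes lie in clusters, and the nearest tested gene on each side was compared, with subunit genes outside the lists passed over. Several of these neighbours lie far off. On chromosome 5, Gabra2 and Gabra4 both lie on the minus strand, and Gabra4 and Gabrb1 start head to head, with gene spans that overlap by 196 bases and 46 shared exon bases. Whether the counting used the strand is not given in the sources used here, so that reads on these bases cannot be assigned with certainty. Beyond the cluster, Gnpda2, 1365256 bases from Gabra2, had a log2 fold change of -0.03 (edgeR adjusted p = 0.885). Commd8, 7537 bases from the end of Gabrb1, had one of -0.16 (adjusted p = 0.168). Neither of these flanking genes passed. On chromosome 7, Gabra5 and Gabrg3 lie 20483 bases apart, between Oca2 (log2 fold change -0.31, adjusted p = 0.329) and Atp10a (0.73, adjusted p = 0.0745), and neither of these passed. Oca2 is 179946 bases from Gabrg3 and Atp10a 1146106 bases from Gabra5. Gabra5 shares 148 exon bases with Gm9962 on the other strand, which had at most 4 counts in a library. On chromosome 11, Gabrb2 stood between Hspd1-ps3 (log2 fold change -0.30, adjusted p = 0.407) and Atp10b, which fell by 1.17 on the log2 scale (adjusted p = 0.00054). These lie 919298 and 520848 bases away. Gabra3 stood between Gabre and Gabrq, described above.

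Klf13 lies on chromosome 7 as well, and chromosome stretches next to a targeted gene can differ between knockout and control animals. Gabra5 is 6376291 bases and Gabrg3 6499162 bases away from it. Within 10000000 bases on each side of Klf13, 13.9% of 108 tested genes rose and 14.8% fell, with a median log2 fold change of 0.09. Whether the knockout animals carried other alleles there was not tested.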

How the data were processed

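The 7 subunit genes and all gene lists were chosen with earlier results of these data known. Some genes, further subunit genes among them, are not reported here. The deposited values are raw counts per gene, without normalization. The authors trimmed reads with Trimmomatic (0.36), mapped them with STAR (2.5.2b) to GRCm38 and counted unique exonic hits with featureCounts of Subread (1.5.2), per the labels and the study's methods. The annotation release and the strand setting are not given in the sources used here. Symbols were matched through a table of gene names.

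Counts were filtered with filterByExpr by group, scaled with TMM factors and fitted in edgeR 4.0.16 (R 4.3.3) by the robust quasi-likelihood model with the group as the only term. Tests were two-sided, with Benjamini-Hochberg adjustment over the 18352 genes tested. The fit was also run on simulated counts with known fold changes and 1 dispersion common to all genes. This checked the working of the code and not the error rate for genes as variable as these. Alternatives were DESeq2 1.42.0, limma 3.58.1 (voom), other scalings and filters, a replicate block, a covariate and the removal of each library. They were run for Klf13 and the 7 genes. Other genes have the value of 1 fit.

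Named were the 7 genes, Klf13, the 3 highest and up to 5 called genes of each of 13 further lists, the 5 genes most alike, and neighbouring and overlapping genes. Neighbours were taken among tested genes, and subunit genes outside the lists were passed over, which departs from the rule as first written. Gphn, Plcl1, Wnk3, Gabrd, Gabrp, Gabrr3, Vip and Cldn5, the motif search, the ratio to GABAergic markers and the stretch around Klf13 were chosen after values were seen. Total counts per library were 24507471 to 59596479. At this depth replicates of a group still differed beyond counting noise (chi-square per degree of freedom 17.4 to 218), so no pair looked like 1 library deposited again. Deviations from the group means correlated at 0.11, 0.46 and 0.17 in the 3 pairs with the same replicate number and at -0.53 to 0.20 in the others. The replicate block was therefore fitted as well, while the values given come from the fit without it unless stated. P-values of the fits set the difference between the groups against the spread between these cultures, which was estimated with information shared over genes.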

Additional observations from a re-analysis of the deposited data

How the results depend on the processing

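No result reversed under any of the 17 alternatives, and the count of subunit genes that fell was 0 in each. The count that rose (6) was 6 under DESeq2, limma, DESeq2's size factors, upper quartile factors, total counts, library sizes without the ribosomal RNA-collecting genes and at least 10 counts in every library, 5 with their share as a covariate and 4 with no filter on low counts. Without 1 library at a time it was 3 to 6, with 3 without knockout replicate 2. The count past both thresholds (5) was 3 with no filter on low counts, and 2 to 5 without 1 library at a time, with 2 without knockout replicate 2, 3 without control replicate 4, knockout replicate 1 or knockout replicate 3. It was 4 without the ribosomal RNA-collecting genes and with their share as a covariate. With the replicate block, 6 rose and 4 passed both thresholds. The block changed no call at the adjusted p among the 7 genes. For Klf13 the log2 fold change lay within -3.75 to -3.61. At the adjusted p, Gabrb1 and Gabrg3 passed in all 17 alternatives, Gabra2 in 16, Gabra3 in 15, Gabrb2 in 13, Gabra4 in 11 and Gabra5 in 0. The causes were not tested, apart from fewer libraries where one was left out. Gabra5, Gabrb2 and Gabrg3 had the fewest counts, down to 24 for Gabra5, and a rise of Gabra5 was not shown at this depth and number of libraries.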
